A study of Mus musculus with 6 samples.

Results

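Collagen gene expression was examined in whole uteri of pregnant mice at gestation day (GD) 3.5, the receptive day before the embryo attaches. The collagen genes were taken as all genes whose symbol is Col, a type number, the letter a and a chain number, without Col17a1. This rule reads no measured value, but it was chosen with earlier results of these data known. It found 43 genes in the RefSeq gene table. Of these, 41 had a probe on the array, out of 20145 genes with a probe. In all, 33 collagen genes gave enough signal to be tested, out of 14854 genes tested.

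The series compared 3 Sox17 f/f uteri, which carry floxed Sox17 alleles and no Cre and are the controls, with 3 LtfiCre/+ Sox17 f/f uteri, here Sox17 ed/ed. Both groups therefore carry the floxed alleles, and the females were 8 to 10 weeks old at mating, which was natural mating with fertile males. In Sox17 ed/ed mice an iCre driven from the lactoferrin gene removes Sox17, which encodes a SOX family transcription factor, from uterine epithelium from puberty onward, so stromal, muscle and vascular cells keep the gene. The RNA came from whole uterine tissue without embryos and was hybridized to 1-colour Agilent arrays, 1 per sample, all on 1 slide. The 3 arrays of each genotype lay in a line of the slide of their own, so genotype and slide position cannot be told apart. Because the tissue is a mixture, fewer cells of a type and less RNA per cell cannot be told apart either.

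Collagens are secreted as trimers of chains wound into a triple helix, and each type is built from its own set of chains. Fibrillar collagens form the tensile fibers of the stroma and muscle layers. Network collagens, above all type IV, form the sheet of the basement membrane under epithelium and around vessels and muscle cells. Beaded-filament type VI links cells to that sheet, and FACIT collagens sit on the surface of fibrils. In the uterus at this stage the luminal and glandular epithelia rest on a basement membrane that lies over a fibril-rich stroma.

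The genotype was checked on Sox17 itself. Its log2 signal was 12.21, 12.07 and 12.22 in Sox17 f/f and 9.75, 9.59 and 9.81 in Sox17 ed/ed. The log2 fold change was -2.45 (SE 0.09, limma adjusted p = 2.67e-05). The scanner software rated 60.7% to 65.7% of the spots other than controls as well above background in Sox17 f/f and 56.8% to 59.4% in Sox17 ed/ed, and none as saturated. With 3 arrays a genotype, precision rests on the number of arrays.

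A gene was counted as higher or lower where limma gave an unadjusted p under 0.01 and a fold change of at least 1.4. By that rule 10 of the 33 tested collagens (30.3%) differed between the genotypes, 8 higher and 2 lower in Sox17 ed/ed, where 12.5% of all genes tested did, 6.04% higher and 6.46% lower. The median log2 fold change was 0.03 over the collagens and -0.0015 over all genes. No fibrillar collagen was among the 10. The basement membrane collagens held 4 of the higher and 1 of the lower genes among 9 tested, and the 14 other collagens held 4 higher and 1 lower.

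With an adjusted p under 0.05 and no fold threshold, 15 collagens differed, 10 higher and 5 lower, against 18.8% of all genes. The 3 arrays of one genotype did not overlap those of the other for 19 collagens, 13 higher and 6 lower in Sox17 ed/ed. This held for 40.3% of all genes tested, 19.4% higher and 20.9% lower.

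**Figure D1:**
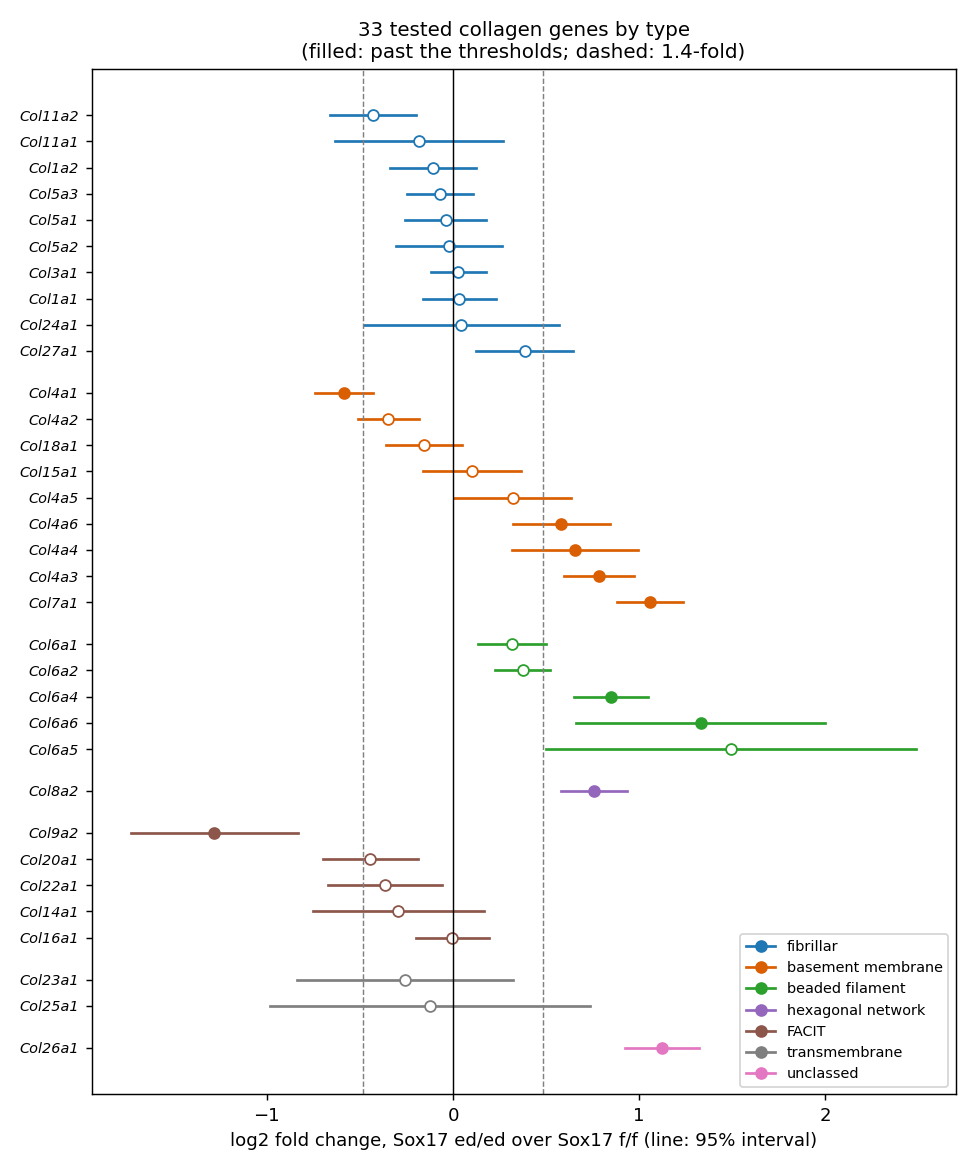
Log2 fold change of Sox17 ed/ed over Sox17 f/f for the 33 tested collagen genes, grouped by type. Circles are limma estimates from 3 arrays against 3, lines their 95% intervals, filled circles the 10 genes past the thresholds and dashed lines a fold of 1.4. The 10 fibrillar genes at the top are all open circles, and the type VI chains all lie to the right of 0.

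The fibrillar collagens, which make up the bulk of uterine collagen, were the flattest group. None of the 10 tested passed the thresholds, their median log2 fold change was -0.03, and 6 of them had a 95% interval that lay wholly inside a fold of 1.4 in either direction. Col1a1 encodes the major chain of type I collagen, the main fibril former. Its log2 signal was 15.62, 15.53 and 15.51 in Sox17 f/f and 15.46, 15.64 and 15.66 in Sox17 ed/ed. The groups overlapped, and the log2 fold change was 0.03 (95% interval -0.16 to 0.23), with a sign that turned under other scalings.

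Col1a2, its partner chain, read 17.44, 17.44 and 17.54 against 17.20, 17.39 and 17.51. The difference was -0.11 (95% interval -0.34 to 0.12). Col3a1, the chain of type III collagen found with type I in soft tissue, read 16.36, 16.37 and 16.38 against 16.38, 16.45 and 16.35. These groups too overlapped, at 0.03 (95% interval -0.12 to 0.18).

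The type V chains, which start and limit the width of type I fibrils, were as close, with log2 fold changes of -0.04 for Col5a1, -0.02 for Col5a2 and -0.07 for Col5a3. Some minor fibrillar chains were less settled: Col11a1 at -0.18, Col24a1 at 0.04 and Col27a1 at 0.38 had intervals that reached past a fold of 1.4. Col11a2 had an adjusted p of 0.0276 with a log2 fold change of -0.43, short of the fold threshold, and was well above background on 2 of the 3 Sox17 ed/ed arrays. It passed the thresholds, as lower, without Sox17 ed/ed replicate 3. Col2a1, the cartilage fibrillar chain, was too dim to test.

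Among 10 stromal marker genes none passed the thresholds. For 4 of them (Hand2, Hoxa10, Hoxa11 and Wt1) the Sox17 ed/ed arrays lay above all controls, and for none below. Hand2 stood at 0.32 and Nr2f2, also on the list, at -0.02 with overlapping arrays. The paper instead reports both reduced in Sox17 ed/ed on the same gestation day, by staining of the stroma and by quantitative PCR. It places both downstream of Indian hedgehog signaling, so neither can be read as a marker of stroma alone. This difference from the paper was not tested. The list's mean log2 signal ran from 12.28 to 12.35 in Sox17 f/f and from 12.44 to 12.46 in Sox17 ed/ed. Of 10 smooth muscle markers 1, Actg2, was lower past the thresholds. In all 7 had a negative log2 fold change, 5 of them (Acta2, Actg2, Cnn1, Des and Tagln) with arrays below all controls. None lay above all controls, and the median was -0.22. Over all genes tested, 20.9% lay below and 19.4% above all controls, and 12.5% passed the thresholds. The smooth muscle list means were 13.55 to 13.63 against 13.22 to 13.63. The part of these lists in the fibrillar values was not tested.

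Type IV collagen, the network of the basement membrane, changed in opposite directions by chain. The chains Col4a1 and Col4a2 form the type IV molecule found in nearly every basement membrane, vessels included, and both had lower signals in Sox17 ed/ed. Col4a1 read 13.89, 13.99 and 13.99 in Sox17 f/f and 13.33, 13.41 and 13.38 in Sox17 ed/ed. That is a log2 fold change of -0.59 (SE 0.06, adjusted p = 0.00196).

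Col4a2 read 13.48, 13.57 and 13.62 against 13.17, 13.21 and 13.25. All 3 Sox17 ed/ed arrays again lay below all 3 controls, but the log2 fold change of -0.35 (SE 0.07, adjusted p = 0.0173) was under the fold threshold. The RefSeq starts of these genes overlap head to head. The stretch covered by both transcripts, 22 bases at chr8:11312805-11312826 (GRCm38.p6, plus strand), is shown because both genes start on it, and capitals mark the GC box, a motif of the factor SP1.
Col4a1 and Col4a2 shared start: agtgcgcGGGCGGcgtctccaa

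Of 10 endothelial markers 9 had a negative log2 fold change, with 1 gene (Esam) lower and 1 (Cldn5) higher past the thresholds. The Sox17 ed/ed arrays lay below all controls for 7 of the 10 and above all controls for 1. Over all genes tested, 20.9% lay below and 19.4% above all controls, and 12.5% passed the thresholds. The mean log2 signal of the endothelial list was 10.84 to 10.93 in Sox17 f/f and 10.65 to 10.70 in Sox17 ed/ed. Of the 10 smooth muscle markers 7 were negative. The part of either list in the Col4a1 and Col4a2 values was not tested.

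Of the other 4 type IV chains, which build the tissue-restricted networks, 3 were higher. Col4a3, Col4a4 and Col4a5 form one such molecule, known from the kidney glomerulus, and Col4a5 and Col4a6 form another, known from epithelial and smooth muscle basement membranes. Col4a6 read 11.85, 11.77 and 12.03 in Sox17 f/f and 12.31, 12.61 and 12.47 in Sox17 ed/ed. The groups did not overlap, and the log2 fold change was 0.58 (SE 0.11, adjusted p = 0.0148), with 0.53 on a second probe.

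Col4a5 read 11.55, 11.51 and 11.75 against 11.82, 12.17 and 11.77. Its log2 fold change of 0.32 (SE 0.13, adjusted p = 0.144) passed no threshold, although the highest control lay below the lowest Sox17 ed/ed array. Without Sox17 ed/ed replicate 2 it was 0.19. Col4a5 and Col4a6 also lie head to head, with 1342 bases between their RefSeq starts.

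Col4a3 was dim, at 4.74, 4.76 and 4.79 in Sox17 f/f and 5.48, 5.68 and 5.48 in Sox17 ed/ed. Its log2 fold change was 0.78 (SE 0.08, adjusted p = 0.0013). Its neighbour Col4a4 read 7.82, 7.51 and 8.03 against 8.37, 8.43 and 8.53, a log2 fold change of 0.65 (SE 0.14, adjusted p = 0.0238).

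Both chains sat apart from the controls on all 3 arrays, but both calls depended on how background was handled. With normexp background correction the log2 fold changes were 0.27 for Col4a3 and 0.46 for Col4a4, both short of the fold threshold. The Col4a4 call was also lost without Sox17 ed/ed replicate 2 or replicate 3, where the unadjusted p rose above 0.01, while its second probe above background gave 0.54. The lowest signals rated well above background ran from 3.19 to 4.34 over the 6 arrays, which is close to the Col4a3 values.

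Col7a1, the chain of the anchoring fibrils that tie a basement membrane to the stroma below it, had the clearest difference of the basement membrane group. It read 13.18, 13.17 and 13.25 in Sox17 f/f and 14.19, 14.23 and 14.36 in Sox17 ed/ed. The signal was 2.08-fold higher (log2 fold change 1.06, SE 0.07, adjusted p = 0.000289), and it stayed between 0.99 and 1.06 under every other processing tried and between 1.01 and 1.09 with any 1 array left out. Col15a1 and Col18a1, whose collagens bridge the basement membrane to the tissue beneath and of which Col18a1 yields endostatin, stood at 0.10 and -0.16 with overlapping arrays.

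Anchoring fibrils are best known from skin and other stratified epithelia. Of 5 tested stratified squamous markers 2 passed the thresholds, and neither rose well above background in Sox17 f/f. They entered the test only through Sox17 ed/ed, so their count is no support, and only bounds hold: Krt15 was at least 62.8-fold and Krt5 at least 5.25-fold higher in Sox17 ed/ed. The other 3 overlapped between genotypes, with Krt13 at 0.06, Krt14 at 0.30 and Trp63, the defining factor of basal cells, at -0.12. The paper, by contrast, reports higher Trp63 mRNA in Sox17 ed/ed than in Sox17 f/f uteri by quantitative PCR on the same gestation day. It also reports sporadic TRP63-positive cells in the Sox17 ed/ed epithelium. The Trp63 value here is that of the brightest of 2 probes, and its difference from the paper was not tested. The list's mean log2 signal was 5.31 to 5.67 in Sox17 f/f and 6.99 to 8.09 in Sox17 ed/ed. This mean includes Krt15 and Krt5, so it is no support either.

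Among 9 uterine epithelial markers 3 were higher (Cdh1, Krt8 and Krt19) and 2 lower (Cldn3 and Cldn7). Over all genes tested, 6.04% were higher and 6.46% lower by these thresholds. The epithelial list means were 11.17 to 11.29 against 11.27 to 11.57. The part of either list in the collagen values was not tested.

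**Figure D2:**
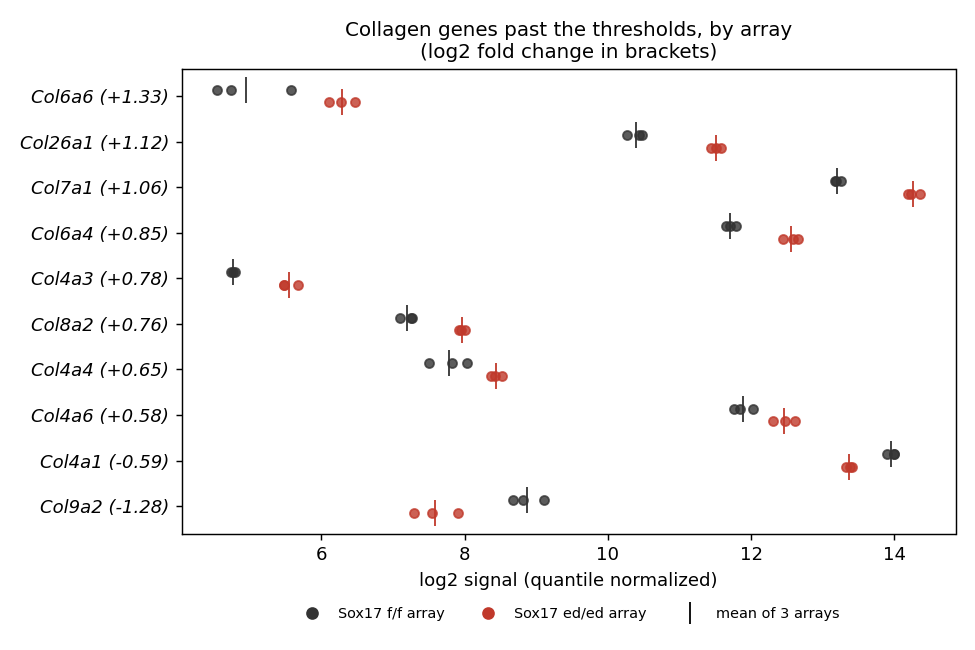
Log2 signal on each of the 6 arrays for the 10 collagen genes past the thresholds, 3 Sox17 f/f arrays in black and 3 Sox17 ed/ed arrays in red, with the mean of each group as a vertical line and the log2 fold change in brackets. In each row the black and red points are apart, and Col9a2 and Col4a1 are the rows in which red lies to the left. Signals of different genes come from different probes and are not comparable.

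Type VI collagen, the beaded filament, gave more signal in Sox17 ed/ed on every tested chain. All 5 chains had positive log2 fold changes with groups that did not overlap, their median was 0.85, and 2 passed the thresholds. Over all genes tested, 19.4% were higher without overlap and 6.04% passed the thresholds as higher. The type VI molecule joins the chains of Col6a1 and Col6a2 with 1 more. This is that of Col6a3 or one of the later-found alternatives Col6a4, Col6a5 and Col6a6. Col6a3 had no matched probe and was not analysed here.

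The alternatives moved most. Col6a4 read 11.64, 11.70 and 11.78 in Sox17 f/f and 12.65, 12.59 and 12.44 in Sox17 ed/ed. Every Sox17 ed/ed array lay above every control, at a log2 fold change of 0.85 (SE 0.08, adjusted p = 0.00115), and a second probe gave 0.80.

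Col6a6 read 4.74, 4.54 and 5.58 against 6.28, 6.10 and 6.47. The log2 fold change was 1.33 (SE 0.28, adjusted p = 0.0218), and 1.85 on a second probe. That second probe was dim in Sox17 f/f, at 4.42, 3.67 and 4.19, and well above background on 2 of these 3 arrays. On the first probe Sox17 f/f replicate 3 stood well above the other controls. The call was lost without Sox17 f/f replicate 1 or without Sox17 ed/ed replicate 1 or 3, where the unadjusted p rose above 0.01. With normexp the log2 fold change was 0.59.

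Col6a5 read 4.94, 5.04 and 3.56 against 6.13, 5.66 and 6.23, and 2 of its 3 control arrays were well above background. With a log2 fold change of 1.49 (SE 0.41, unadjusted p = 0.0102, adjusted p = 0.0524) it fell just outside the thresholds. It passed them with scaling by the 75th percentile, with normexp, with an intensity trend, and without Sox17 f/f replicate 2 or 3. A second Col6a5 probe was well above background on 0 of 6 arrays.

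Col6a6, Col6a5 and Col6a4 follow each other on chromosome 9 with no protein-coding gene between them, on the minus strand. The 250 bases before each RefSeq start are shown because these neighbours had the largest differences of the type VI group, with Col7a1 of the same chromosome beside them. Coordinates are GRCm38.p6, sequences are RefSeq's, 5′ to 3′ on the strand of the gene, and capitals mark GC boxes (GGGCGG or its complement CCGCCC).
Col6a4 (chr9:106096692-106096941, minus strand): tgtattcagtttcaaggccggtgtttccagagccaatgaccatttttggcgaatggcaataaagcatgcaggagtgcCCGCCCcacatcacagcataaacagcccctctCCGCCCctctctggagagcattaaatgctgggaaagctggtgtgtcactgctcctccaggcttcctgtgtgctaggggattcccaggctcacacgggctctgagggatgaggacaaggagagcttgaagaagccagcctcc
Col6a5 (chr9:105960644-105960893, minus strand): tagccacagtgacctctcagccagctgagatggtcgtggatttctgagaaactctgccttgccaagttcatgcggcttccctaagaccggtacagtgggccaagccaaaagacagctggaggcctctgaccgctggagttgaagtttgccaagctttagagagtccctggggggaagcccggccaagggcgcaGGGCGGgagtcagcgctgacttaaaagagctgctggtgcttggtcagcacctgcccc
Col6a6 (chr9:105828086-105828335, minus strand): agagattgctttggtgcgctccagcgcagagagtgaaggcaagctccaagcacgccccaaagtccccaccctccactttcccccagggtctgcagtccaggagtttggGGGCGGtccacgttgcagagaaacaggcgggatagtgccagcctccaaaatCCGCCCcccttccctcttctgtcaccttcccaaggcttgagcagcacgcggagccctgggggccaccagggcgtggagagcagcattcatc
Col7a1 (chr9:108953336-108953585, plus strand): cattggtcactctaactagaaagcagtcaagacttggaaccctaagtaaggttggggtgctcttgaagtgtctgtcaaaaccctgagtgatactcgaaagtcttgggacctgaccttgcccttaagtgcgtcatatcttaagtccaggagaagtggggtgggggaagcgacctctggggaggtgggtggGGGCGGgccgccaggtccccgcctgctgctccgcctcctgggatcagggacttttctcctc

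Each of these windows held at least 1 GC box, and none held ACAAT or its complement ATTGT, the core letters of many SOX sites. The constant chains moved less. Col6a1 read 16.03, 16.19 and 16.13 in Sox17 f/f and 16.39, 16.39 and 16.51 in Sox17 ed/ed, a log2 fold change of 0.31 (SE 0.08, adjusted p = 0.0343). Col6a2 read 14.06, 14.13 and 14.17 against 14.50, 14.51 and 14.47, at 0.37 (SE 0.06, adjusted p = 0.00962). Neither reached the fold threshold, and neither overlapped between genotypes.

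Of the 5 FACIT collagens tested 1 passed the thresholds, as lower, where 6.46% of all genes tested did. All 5 had log2 fold changes below 0, Col16a1 by almost nothing, as did 7463 of the 14854 genes tested, and their median was -0.37. Col9a2 encodes a chain of type IX collagen, which coats the fibrils of cartilage. It read 8.81, 8.68 and 9.11 in Sox17 f/f and 7.55, 7.29 and 7.91 in Sox17 ed/ed, a log2 fold change of -1.28 or 2.43-fold lower (SE 0.19, adjusted p = 0.00572).

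Its partners Col9a1 and Col9a3 were too dim to test. The brighter Col9a1 probe read 4.23, 4.03 and 4.95 against 3.99, 3.59 and 3.75 and was well above background on 1 array. Col9a3 read 3.02, 2.05 and 1.89 against 2.09, 2.61 and 2.20 and was well above background on 0 of 6 arrays.

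Of 6 tested cartilage markers 2 were higher (Chad and Cytl1) and 1 lower (Sox9), where 6.04% of all genes tested were higher and 6.46% lower. The list means were 5.39 to 5.69 in Sox17 f/f and 5.87 to 5.94 in Sox17 ed/ed. They include Chad, which was well above background on 2 of 3 control arrays. Snorc was well above background on 0 of 6 arrays. The part of this list in the Col9a2 value was not tested.

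Col20a1 stood at -0.44 (SE 0.11, adjusted p = 0.0339) and at -0.58 on a second probe, with groups that did not overlap. It passed the thresholds with probes averaged, without Sox17 f/f replicate 3 and without Sox17 ed/ed replicate 1. Col22a1, a collagen of tissue junctions such as that of muscle and tendon, stood at -0.37 (adjusted p = 0.0956), Col14a1 at -0.29 and Col16a1 at -0.00, with a 95% interval of -0.20 to 0.19. Col19a1 was well above background on 0 of 6 arrays, and Col12a1 had no matched probe.

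Single members of smaller types were also higher. Col8a2, a chain of the hexagonal network of type VIII collagen known from the cornea and vessel walls, read 7.09, 7.26 and 7.25 in Sox17 f/f and 7.93, 7.94 and 8.00 in Sox17 ed/ed. The log2 fold change was 0.76 (SE 0.07, adjusted p = 0.00117). Its partner Col8a1 was too dim to test, at 3.91, 3.22 and 3.46 against 1.82, 1.90 and 2.54. It was well above background on 1 control array, and with no filter on low signal it passed the thresholds as lower.

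Col26a1, a collagen described in developing testis and ovary, had the largest increase after Col6a6 among the collagens past the thresholds. It read 10.47, 10.43 and 10.26 against 11.44, 11.57 and 11.52, at 1.12 or 2.18-fold higher (SE 0.08, adjusted p = 0.00037). No marker among 5 tested ovarian genes passed the thresholds, where 12.5% of all genes tested did. The transmembrane collagens Col23a1 at -0.26 and Col25a1 at -0.12 overlapped between genotypes, and Col13a1, Col10a1 and Col28a1 were too dim to test.

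**Figure D3:**
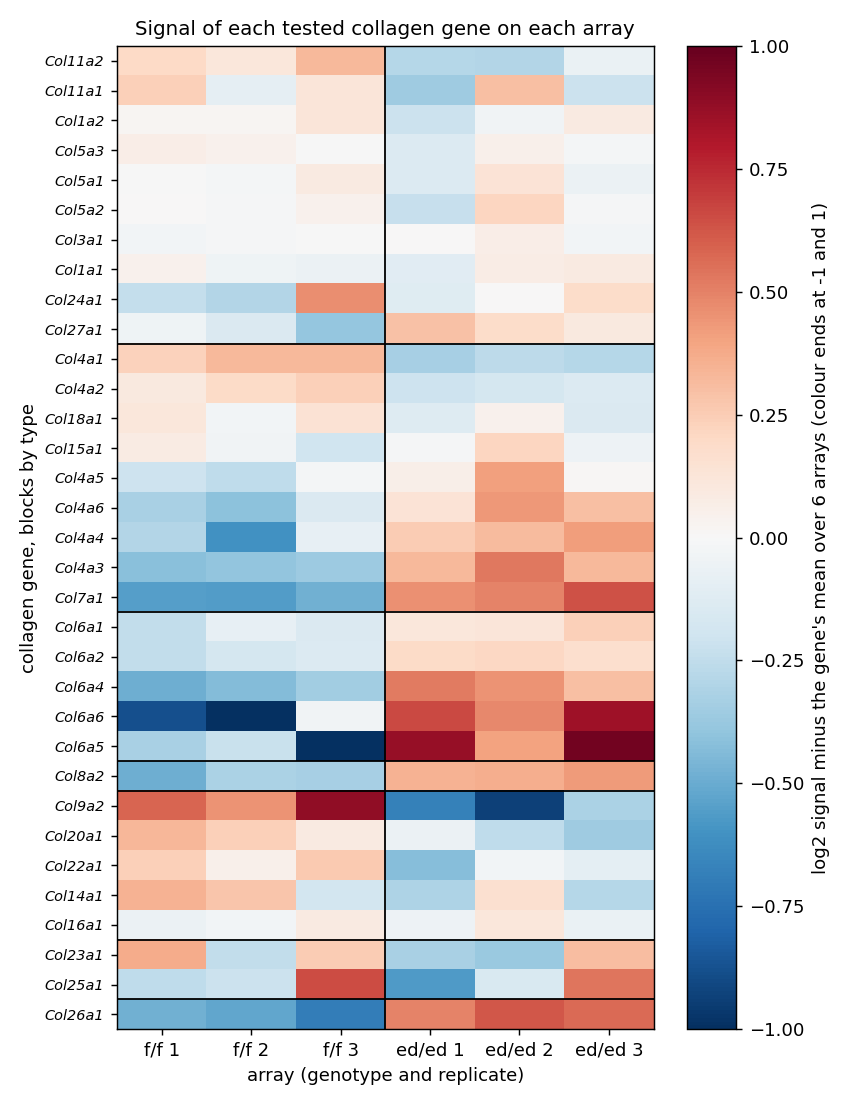
Log2 signal of each tested collagen gene on each array, minus that gene's mean over the 6 arrays, with red above and blue below the mean and colours ending at -1 and 1. Rows are genes in blocks by type and columns are the 3 Sox17 f/f and then the 3 Sox17 ed/ed arrays. The type VI block turns from blue to red between the genotypes, while the first, fibrillar block stays pale or mixed.

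Because chains assemble in fixed ratios, the balance between chains of one molecule was compared within each array. Of 15 pairs listed, 8 had both chains measured, and the within-array log2 difference did not overlap between genotypes for 3 of them, all in type IV. Only the change of a difference is read, since probes differ in brightness.

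Col4a2 minus Col4a1 was -0.42, -0.42 and -0.37 in Sox17 f/f and -0.16, -0.20 and -0.13 in Sox17 ed/ed. This is a change of 0.24 (SE 0.03), with every Sox17 ed/ed array above every control. Col4a6 minus Col4a5 was 0.30, 0.26 and 0.28 against 0.49, 0.44 and 0.70, a change of 0.26 (SE 0.08). Col4a5 minus Col4a3 changed by -0.46 (SE 0.09), but by 0.01 with normexp. The exact permutation p, two-sided, was 0.1 for each of these 3, the smallest that 3 arrays against 3 allow, and 0.267 after adjustment over the 8 pairs.

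The remaining pairs overlapped. Col1a2 minus Col1a1 changed by -0.14 (SE 0.07, exact p = 0.2), Col11a2 minus Col11a1 by -0.25 (SE 0.25, exact p = 0.5) and Col4a4 minus Col4a3 by -0.13 (SE 0.17, exact p = 0.5). Single arrays moved these values by more than 1.5 times: the Col11 change was -0.01 without Sox17 ed/ed replicate 2, the Col4a4 change -0.02 without Sox17 f/f replicate 3 and the Col1 change -0.09 without that same control. The smallest changes were 0.06 for Col6a2 minus Col6a1 (SE 0.06, exact p = 0.4) and 0.02 for Col5a2 minus Col5a1 (SE 0.05, exact p = 0.8).

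**Figure D4:**
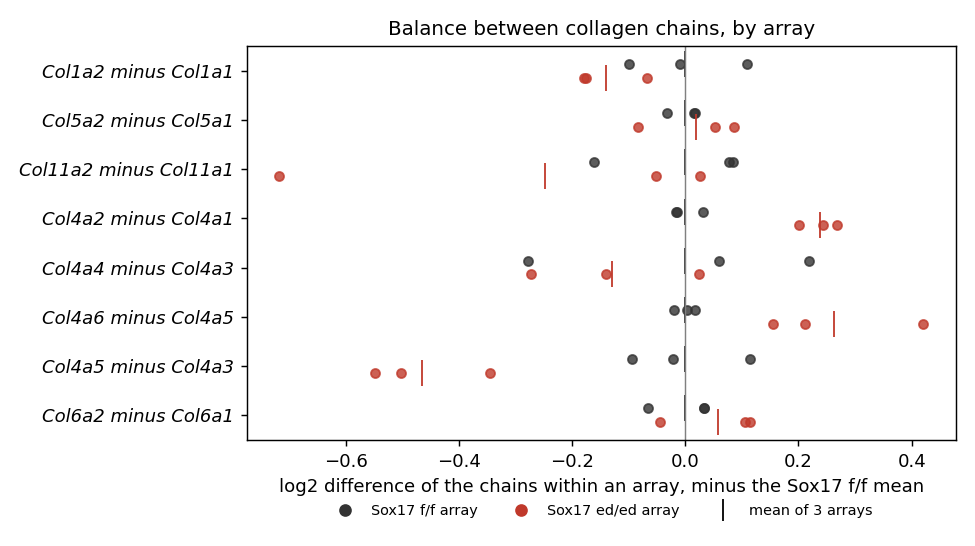
Difference in log2 signal between 2 chains of one collagen molecule on each array, shifted so that the mean of the 3 Sox17 f/f arrays is 0, with Sox17 f/f in black, Sox17 ed/ed in red and group means as vertical lines. Red and black are apart for Col4a2 minus Col4a1, Col4a6 minus Col4a5 and Col4a5 minus Col4a3, and overlap in the other 5 pairs.

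Promoter sequence was described for the members with an entry in the RefSeq promoter table, 37 windows of 34 members, each from 250 bases before to 50 after the start. A GC box (GGGCGG or CCGCCC) was present in 23 of the 37 windows (62.2%), against 35.7% of all 32851 windows. The collagen windows were also richer in G and C, with a median of 60.0% against 52.7%. Of the 8 members past the thresholds that had a window, 7 held a GC box. TATAAA, the TATA box, or its complement TTTATA was in 10.8% of the collagen windows and 13.6% of all.

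ACAAT or ATTGT was found in 2 collagen windows (5.41%), those of Col3a1 and Col28a1, against 31.0% of all windows. None of the 8 windows of members past the thresholds held it, which says only that these letters are not in these windows.

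The enzymes and partners that turn procollagen into fibrils were read from a list of 53 genes, of which 48 were tested. Past the thresholds were 9 (18.8%, against 12.5% of all genes), 2 higher and 7 lower in Sox17 ed/ed, with a median log2 fold change of -0.07. Of the genes that act on the chains inside the cell, Plod2 was lower and Colgalt2 higher and the others did not pass both thresholds. Among these, and named after their values were seen, P4ha3, a prolyl hydroxylase subunit, stood at -0.39 (adjusted p = 0.0218) and P3h2, a prolyl 3-hydroxylase, at -0.46 (adjusted p = 0.0649), both with arrays below all controls. Serpinh1, the collagen chaperone HSP47, read 14.96, 14.89 and 14.86 against 14.76, 14.85 and 14.97, at -0.04 (95% interval -0.23 to 0.15). P4ha1, a prolyl hydroxylase subunit that stabilizes the helix, stood at 0.03 (95% interval -0.16 to 0.22).

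Of the 7 lower genes, 5 crosslink collagen or help to trim it outside the cell. Lox, a lysyl oxidase that starts the crosslinks of collagen and elastin, read 8.37, 8.17 and 8.35 in Sox17 f/f and 7.12, 7.63 and 7.55 in Sox17 ed/ed. The groups were apart, at a log2 fold change of -0.86 (SE 0.15, adjusted p = 0.0113). Its relative Loxl1 stood at -0.49 (adjusted p = 0.0214), right at the fold threshold. Loxl4 read 5.23, 4.80 and 4.79 in Sox17 f/f and did not rise well above background in Sox17 ed/ed, so it was at least 1.64-fold lower. It entered the test only through the controls. With genes well above background on all 6 arrays alone, which leaves out Loxl4 and Tll1, 7 of the listed genes passed.

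Pcolce, which enhances the removal of the procollagen C-terminal end, read 15.20, 15.31 and 15.32 against 14.48, 14.81 and 14.63, at -0.64 (SE 0.10, adjusted p = 0.00768). Tll1, a proteinase of the family that makes this cut, stood at -1.84 (SE 0.17, adjusted p = 0.000834) with 1 of 3 Sox17 ed/ed arrays well above background. Like Loxl4, it met the filter on signal through its controls, and its Sox17 ed/ed values lay near background. Bmp1, the main enzyme of that family, stood at 0.13 (95% interval -0.06 to 0.32). Plod2, a lysyl hydroxylase that sets the kind of crosslink, stood at -0.50 (unadjusted p = 0.00942, adjusted p = 0.05), and Fmod, a proteoglycan that binds fibrils, at -1.08 (SE 0.15, adjusted p = 0.00493).

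The higher genes were Colgalt2, a galactosyltransferase that adds sugar to collagen lysines, and Itga11, the alpha chain of a fibrillar collagen receptor. Colgalt2 read 5.26, 5.19 and 4.79 against 5.64, 6.21 and 5.92, at 0.84 (SE 0.18, adjusted p = 0.0256). Itga11 read 9.02, 8.89 and 9.03 against 9.29, 9.51 and 9.66, at 0.50 (SE 0.11, adjusted p = 0.0245). By role, processing genes held 1 higher and 6 lower of 32, fibril partners 1 lower of 8 and receptors 1 higher of 8. Of the 8 receptor genes, 5 had a negative log2 fold change. Arrays of Sox17 ed/ed lay below all controls for 2 receptor genes and above for 1, against 20.9% and 19.4% of all genes tested.

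**Figure D5:**
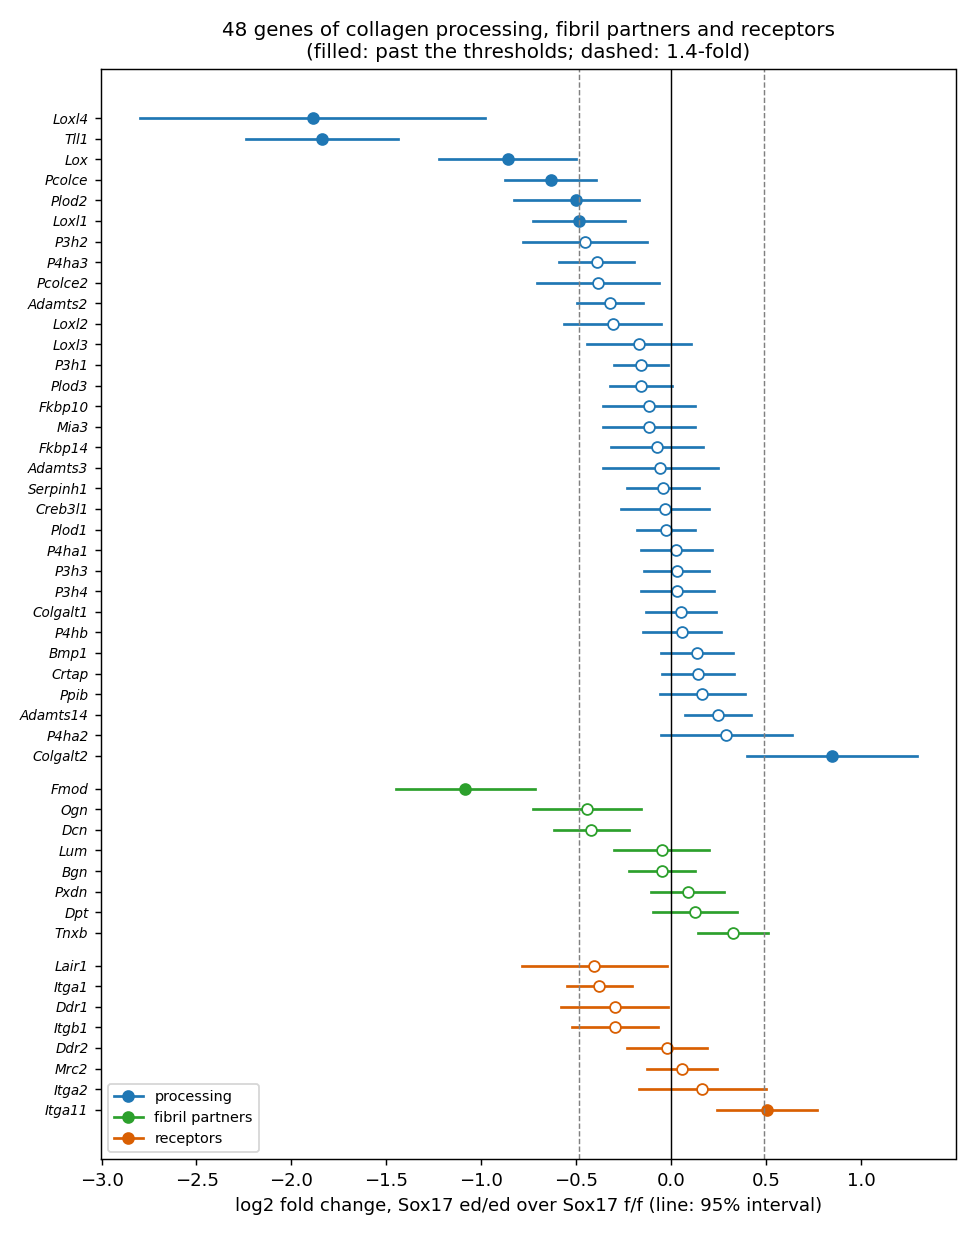
Log2 fold change of Sox17 ed/ed over Sox17 f/f for the 48 tested genes of collagen processing, fibril partners and receptors. Circles are limma estimates, lines 95% intervals and filled circles the 9 genes past the thresholds. The filled circles lie mostly at the lower end of the processing genes, and Loxl4 was not well above background in Sox17 ed/ed, so its point is no bound.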

How the data were processed

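Total RNA of 6 whole uteri was hybridized to 1-colour Agilent arrays, 3 per genotype. The labels number the replicates but do not say that each is a separate animal, so p-values measure the spread between these samples. The authors deposited the scanner's intensity for each spot (background-subtracted, Feature Extraction 11.0.1.1 in the file headers, 9.1 in the submitters' processing notes). They also deposited a table of intensity values of the same arrays, which was put on the log2 scale here.

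From the intensities, control spots and outlier spots were left out, log2 values were quantile normalized, as the study's methods state, and spots of a probe were averaged. Probes were named through RefSeq accessions (26582 of 55681 matched 1 gene) and kept if well above background on at least 3 of 6 arrays, with the brightest probe for each gene. The fit was limma 3.58.1 in R 4.3.3, and p-values were adjusted by Benjamini-Hochberg over the 14854 genes. The methods give the thresholds (p 0.01, fold 1.4) and no test. An "at least" fold sets the mean of the brighter group against that of the dim group. Each dim array enters at its own reading or its lowest signal rated well above background, whichever is higher. The fit was tested on simulated data.

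Genes named are all collagens, with values by array for those past the thresholds, their partner chains and Col1a1, Col1a2, Col3a1, Col4a1 and Col4a2. Of the processing, partner and receptor genes, those past the thresholds and Serpinh1, Lox, Bmp1 and P4ha1 are named. The members and lists were chosen with earlier results of these data known, and the GC box was added after the data were seen. A gene of the epithelial marker list is not reported here, and the list was summarised without it. Alternatives changed the normalization, background correction (normexp, offset 50, on the median spot signal), filter, choice of probe, variance model, source of values, replicate block, call rule and samples.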

Additional observations from a re-analysis of the deposited data

How the results depend on the processing

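The number of collagens past the thresholds stayed within 1.5 times 10 under other normalization, background correction, filters, probe choices, variance model and the deposited table. With any 1 array left out it ran from 9 to 12, with 6 to 9 higher and 2 to 3 lower, and the pathway genes from 6 to 8. With an adjusted p under 0.05 and no fold threshold, 5 collagens were lower and 14 pathway genes differed. At a fold of at least 2 there were 4 collagens, 3 higher and 1 lower, and 3 pathway genes. Direction turned for Col1a1 (-0.0245 with the 75th percentile, -0.031 with normexp, -0.0022 to 0.0984 with 1 array left out), for the change of Col4a4 minus Col4a3 (0.19), Col4a5 minus Col4a3 (0.0122) and Col6a2 minus Col6a1 (-0.0584) with normexp, and for Col5a2 minus Col5a1 (-0.0152 without Sox17 ed/ed replicate 2, up to 0.0701 with another left out). These causes were not tested. Same-numbered samples did not deviate together from their group means (correlations 0.06, -0.11 and -0.000407). With means of 3 arrays this shows no pairing but cannot exclude one. With the replicate block 10 collagens, 8 higher and 2 lower, passed the thresholds. With normexp the log2 fold changes of Col4a3, Col4a4 and Col6a6 were smaller (0.27, 0.46 and 0.59).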
